A study of Mus musculus with 8 samples.

Results

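The genes described here are 35 DNA repair genes of recombination, the Fanconi pathway, mismatch repair, break signalling, end joining and base excision. They were taken by symbol from a fixed list, and every probe that the platform annotation assigns to one of these symbols was used. A probe was named for 31 of them, and 22 passed the filter on dim probes, out of 7502 tested genes. Levels were measured on Illumina bead arrays in primary vascular smooth muscle cells (VSMC), which contract to set the width of vessels, from male C57Bl6/J mice aged 8 weeks. The tested cells carried lentiviral short hairpin RNA against Uhrf1 (shUHRF1), and the control cells carried scramble hairpin RNA (shSCR). Both groups were puromycin-selected over 2 days, and their RNA was harvested at day 5. Each group has 2 RNA samples, and each RNA sample was measured on 2 arrays, which were averaged and counted once. Whether separate cultures or mice gave the RNA samples is not in the labels, nor which hairpin each shUHRF1 sample carried. The p-values therefore rest on the spread between these RNA samples, which may be technical, and not on a known spread between mice. limma moderates each probe's spread toward that of all tested probes, so every SE of a log2 difference is a moderated one. Fits of all 8 arrays also use the spread between arrays of the same RNA sample.

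Repair of a broken DNA molecule begins with sensor complexes that bind the ends and activate kinases, which halt the cell cycle. The break is then either joined directly by the Ku proteins and their partners or copied from the sister chromatid by homologous recombination, a route used in the S and G2 phases, when a sister is present. The Fanconi pathway removes crosslinks between the strands and works with recombination at stalled replication forks. Mismatch repair corrects copying errors, and base excision repair replaces single damaged bases. Uhrf1, the gene targeted by the hairpins, encodes a ubiquitin ligase that reads newly replicated, hemimethylated DNA and brings Dnmt1 there to copy the methylation. The comparison asks which repair transcripts differ between cells with hairpins against Uhrf1 and cells with scrambled hairpins, and how far each shUHRF1 sample contributes.

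Uhrf1 itself averaged 8.77 ± 0.41 on the normalized log2 scale in shUHRF1 cells and 11.53 ± 0.01 in shSCR cells (SD, n = 2 RNA samples each), a 6.74-fold lower level. Median raw signals lay between 103.4 and 123.3 per array, and 45.1% to 48.2% of probes were detected. Of the smooth muscle markers, Acta2, Tagln, Smtn and Actg2 were detected on all 8 arrays, while Myh11, Cnn1 and Myocd were detected on none. The leukocyte markers Ptprc and Adgre1 and the endothelial markers Cdh5 and Vwf were also detected on none, though 3 of 7 endothelial and 2 of 6 leukocyte markers passed the filter. Among the endothelial ones, Egfl7 and Kdr had differences of -0.52 and -0.41, the sign of most repair genes, and Flt1 of 0.66. All shUHRF1 arrays lay below all shSCR arrays in Egfl7, and Kdr was detected on 2 of the 4 shUHRF1 arrays. All 4 tested smooth muscle markers had a difference above 0, with a median of 0.92. The arrays of the groups did not overlap in Tagln, at 1.27, but did in Acta2, at 0.57, Smtn, at 0.12, and Actg2. Actg2 stood at 0.39 in shUHRF1 sample 1 and at 3.48 in sample 2. The fibroblast markers Pi16 and Scara5 were higher in shUHRF1 cells, with log2 differences of 0.89 (SE 0.25) and 1.14 (SE 0.35), and 4 of 4 tested fibroblast markers had a difference above 0, none of them past the adjusted threshold. Scara5 was detected on 2 of the 4 shSCR arrays and passed the filter through the shUHRF1 arrays alone, so the size of its difference is uncertain. It read 7.05 and 5.14 in shUHRF1 sample 1 and 7.24 and 5.11 in sample 2, against 5.43, 5.64, 4.43 and 4.47 on the shSCR arrays. Pi16 read 8.08 and 7.37 in shUHRF1 sample 1 and 9.02 and 6.52 in sample 2, against 7.26, 7.15, 6.77 and 6.25. In both genes the arrays of the groups overlapped, and arrays of the same shUHRF1 sample lay far apart. The other tested fibroblast markers, Pdgfra and Dpt, had differences of 0.10 (SE 0.42) and 0.43 (SE 0.60). Against the shSCR mean they stood at -0.55 and -0.58 in shUHRF1 sample 1 and at 0.76 and 1.43 in sample 2. Fibroblast markers had a median difference of 0.16 for shUHRF1 sample 1 and of 1.05 for sample 2. The part of other cell types in the repair values was not tested. RNA was measured in bulk, where fewer cells with a transcript and less of it per cell cannot be told apart.

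The tested repair genes were lower in shUHRF1 cells with 1 exception. 21 of 22 had a log2 difference (shUHRF1 minus shSCR) below 0, where 51.5% of all tested genes did, and the median was -0.35 against -0.01 over all tested genes. 0 of them passed limma's threshold of an adjusted p under 0.05 over all probes, and 0% of all tested genes did. The targeted gene Uhrf1, at -2.75 (SE 0.23), had the lowest limma adjusted p of all genes, 0.167, and did not pass either. At an unadjusted p under 0.05, 8 members were lower and 0 higher, which is 36.4% of the 22, beside 6.62% of all tested genes lower and 7.9% higher. In 4 members (18.2%) all shUHRF1 arrays lay below all shSCR arrays, against 8.45% of all tested genes, and in 0 members all lay above, against 8.17%. A log2 difference of -0.5 or lower was found in 9 members, against 7.14% of all tested genes. Both shUHRF1 RNA samples lay below both shSCR samples in 14 members (63.6%), against 26.9% of all tested genes. With all 8 arrays fitted and RNA sample as a random block, 0 members passed the adjusted threshold, beside 0.0133% of all tested genes lower.

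These counts depended on single RNA samples and arrays. When shUHRF1 sample 1 was left out, 4 members were lower with p under 0.05 before adjustment (3.67% of all tested genes) and 18 had a difference below 0 (52.6%). When shUHRF1 sample 2 was left out, these counts were 11 (10%) and 21 (50%). Leaving out shSCR sample 1 gave 7 (4%) and 20 (52%), and leaving out shSCR sample 2 gave 2 (2.63%) and 20 (51.3%). From the first arrays alone they were 10 (9.62%) and 19 (51.9%), and from the second arrays alone 4 (3.13%) and 18 (51.7%).

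The detection filter bears on these counts, since a gene that passed through the shSCR arrays alone had to be dimmer on some shUHRF1 arrays. 20 of the 22 were detected on all 8 arrays, and 2, Fanci and Xrcc3, were detected on 3 of the 4 shUHRF1 arrays. Without any filter, 30 of the 31 members with a probe had a difference below 0, against 51% of 16582 genes, and their median was -0.29. The members added here were too dim to be tested, and Palb2, Fancb, Fancm, Nbn and Xrcc5 were detected on no array. The sign of such a difference, as -0.04 for Palb2, says little. At an unadjusted p under 0.05, 11 of the 31 were lower, against 5.56% of those genes. In this fit the SE of Brca2 was 0.08 instead of 0.16 and that of Msh6 0.09 instead of 0.16, with unchanged differences. The counts with and without the filter are therefore not on equal terms.

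Among the recombination genes, Blm, Rad54l and Rad54b had the most negative differences. Blm encodes the RecQ helicase that dissolves recombination intermediates. It read 7.22 and 6.78 on the arrays of shUHRF1 sample 1 and 7.54 and 7.86 on those of sample 2, against 8.29, 8.37, 8.28 and 8.33 on the shSCR arrays. All 4 shUHRF1 arrays lay below all shSCR arrays, and the controls lay close together. Blm was 1.96-fold lower (log2 difference -0.97, SE 0.25, limma adjusted p = 0.287), and its other tested probe gave -1.01.

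Rad54l encodes a motor protein that drives strand exchange. Its signal was 7.42 and 6.83 in shUHRF1 sample 1 and 7.66 and 8.46 in sample 2, against 8.62, 8.32, 8.71 and 8.51 on the shSCR arrays. The groups overlapped, since the second array of shUHRF1 sample 2 lay among the controls while the other shUHRF1 arrays lay below them. The log2 difference was -0.95 (SE 0.31, limma adjusted p = 0.299). Rad54b, its close relative, read 7.29 and 7.16 in shUHRF1 sample 1 and 7.53 and 8.14 in sample 2, against 8.18, 8.00, 8.58 and 8.42 on the shSCR arrays. Here too a single shUHRF1 array, the second of sample 2, reached into the range of the controls, and the difference was -0.76 (SE 0.26, adjusted p = 0.306).

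Rad51ap1, which encodes a protein that stimulates strand pairing, showed the same layout. It stood at 7.01 and 6.76 in shUHRF1 sample 1 and at 7.35 and 7.80 in sample 2, against 7.72, 7.92, 7.91 and 7.71 on the shSCR arrays, with a difference of -0.59 (SE 0.25, limma adjusted p = 0.352). Both arrays of sample 1 lay well below the controls, and those of sample 2 straddled their lower edge. Brca2, whose product prepares resected single-stranded DNA for strand exchange, differed by -0.25 (SE 0.16), with RNA samples at 6.10 and 6.15 in shUHRF1 cells against 6.33 and 6.41 in shSCR cells.

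The remaining recombination genes showed no such gap. Wrn, which encodes the RecQ helicase mutated in Werner syndrome, was the exception among the 22, at 0.02 (SE 0.16, limma adjusted p = 0.968), with 7.26 and 7.24 in the shUHRF1 samples against 7.23 and 7.24 in the shSCR samples. Blm and Wrn belong to the same helicase family, and on these arrays their differences were -0.97 and 0.02. Xrcc3, which acts in strand exchange, differed by -0.04 (SE 0.28), because its shUHRF1 samples stood at 4.86 and 5.66, on either side of the shSCR samples at 5.25 and 5.35. Brca1 and Bard1, which pair into a ubiquitin ligase that promotes end resection, Palb2, the bridge between Brca1 and Brca2, and the resection nuclease gene Exo1 were too dim to be tested. Brca1 was detected on 0 of the shUHRF1 arrays and on 3 of the shSCR arrays, and Palb2 on none. No probe for Xrcc2 was analysed here.

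**Figure D1:**
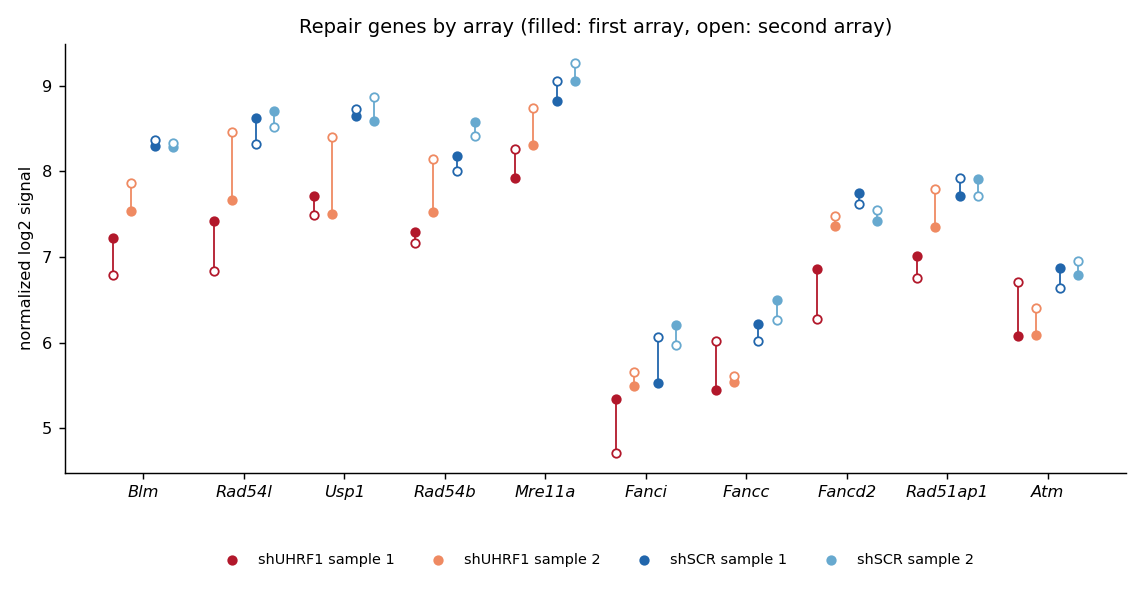
Normalized log2 signal (vertical axis) of the 10 repair genes whose values are given on every array, ordered by their difference, with filled points for the first and open points for the second array of each RNA sample and a line joining them. All 4 shUHRF1 points lie below all shSCR points in Blm, Usp1, Mre11a and Fancc, and the open point of shUHRF1 sample 2 reaches the controls in Rad54l and Rad54b.

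In the Fanconi pathway all 5 tested genes had a difference below 0, and Usp1 had the lowest p of all members. Usp1 encodes the protease that removes ubiquitin from Fancd2 and from the clamp Pcna. It read 7.72 and 7.49 in shUHRF1 sample 1 and 7.50 and 8.41 in sample 2, against 8.64, 8.73, 8.59 and 8.87 on the shSCR arrays. Every shUHRF1 array lay below every control, although the arrays of sample 2 differed by 0.90. The gene was 1.90-fold lower (log2 difference -0.93, SE 0.19, limma adjusted p = 0.287), and its other tested probes gave -1.03 and -1.04. It ranked as number 49 of the 7502 genes by p.

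Fancd2 and Fanci encode the pair of proteins that the pathway marks with ubiquitin at a crosslink. Fancd2 stood at 6.86 and 6.28 in shUHRF1 sample 1 and at 7.36 and 7.48 in sample 2, against 7.75, 7.62, 7.42 and 7.55 on the shSCR arrays (log2 difference -0.59, SE 0.29, limma adjusted p = 0.392). Sample 1 lay clear of the controls and sample 2 overlapped them. Fanci stood at 5.34 and 4.71 in shUHRF1 sample 1 and at 5.49 and 5.66 in sample 2, against 5.53, 6.07, 6.20 and 5.97 on the shSCR arrays (-0.64, SE 0.24, adjusted p = 0.317). Only the second array of shUHRF1 sample 2 lay above the lowest control. The signal is near background, so the size of this difference is uncertain.

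Fancc, a subunit of the core ligase complex, differed in both samples to a like degree. It read 5.44 and 6.01 in shUHRF1 sample 1 and 5.54 and 5.61 in sample 2, against 6.22, 6.02, 6.50 and 6.27 on the shSCR arrays. All shUHRF1 arrays lay below all controls, though the closest pair, at 6.01 and 6.02, nearly touched, with a difference of -0.60 (SE 0.18, limma adjusted p = 0.290) and of -0.35 on its other tested probe. Fancl, the catalytic subunit of the same complex, had the widest split between the shUHRF1 samples, at 5.66 and 6.65 against 6.47 and 6.43 in the shSCR samples (-0.29, SE 0.32). Its other tested probe gave -0.35, with a smaller split and with shUHRF1 sample 2 at -0.02 against the shSCR mean. The core subunit gene Fancb and Fancm, which encodes the translocase that anchors the core complex on DNA, were detected on no array, and no probe for Fanca was analysed here.

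Break sensing was led by Mre11a, which encodes the nuclease of the complex with Rad50 and Nbn that first binds broken ends. Mre11a read 7.92 and 8.26 in shUHRF1 sample 1 and 8.31 and 8.74 in sample 2, against 8.82, 9.06, 9.06 and 9.26 on the shSCR arrays. Every shUHRF1 array lay below every control (log2 difference -0.74, SE 0.21, limma adjusted p = 0.287), and its other tested probes gave -0.85 and -0.24. Atm, the kinase that this complex activates, stood at 6.08 and 6.71 in shUHRF1 sample 1 and at 6.09 and 6.40 in sample 2, against 6.88, 6.64, 6.79 and 6.96 on the shSCR arrays. A single shUHRF1 array of Atm, the second of sample 1, reached the controls, and the difference was -0.50 (SE 0.17, adjusted p = 0.301), with -0.53 on its other tested probe.

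Rad50, the scaffold of the same complex, differed by -0.31 (SE 0.20), with both shUHRF1 samples, at 8.42 and 8.82, below the lower shSCR sample at 8.87. Nbn, the third subunit, was detected on no array with any of its 3 probes. Chek2, a kinase downstream of Atm, differed by -0.32 (SE 0.22), but the shSCR samples differed by -0.42 among themselves (sample 2 minus sample 1). Its other tested probe gave -0.06, with shUHRF1 sample 2 above the shSCR mean by 0.26. Trp53bp1, which encodes a chromatin reader that steers breaks toward end joining, was near 0 at -0.04 (SE 0.17). Chek1, the kinase downstream of Atr, was not tested, with at most 4 arrays detected on any of its probes. No probes for Atr and H2afx were analysed here.

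The tested mismatch and end-joining genes had a difference of -0.29 each. Msh6, whose product recognises mismatches, stood at 10.28 and 10.30 in the shUHRF1 samples against 10.65 and 10.51 in the shSCR samples (-0.29, SE 0.16), so both shUHRF1 samples lay below both controls and by nearly the same amount. Xrcc6, the Ku70 subunit of the end-binding Ku complex, stood at 10.63 and 10.93 in the shUHRF1 samples against 11.12 and 11.01 in the shSCR samples (-0.29, SE 0.18), and all of its 3 probes had a negative difference. Its partner Xrcc5 (Ku80) was detected on no array. Of the base excision and single-strand break genes, Parp1, the sensor that marks single-strand breaks with ADP-ribose, differed by -0.38 (SE 0.24), Xrcc1, the scaffold it recruits, by -0.08 (SE 0.18) and the uracil glycosylase gene Ung by -0.07 (SE 0.17). Parp1 stood at 9.37 in shUHRF1 sample 1 and at 9.95 in sample 2, against 10.18 and 9.91 in the shSCR samples, and sample 2 lay between the controls.

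The promoters of the genes that carry these differences are shown because nearly all members had a difference of the same sign. RefSeq windows on GRCm38.p6, running from 250 bases before to 50 bases after each start, were at hand for 17 of the 22 tested members. They were searched on both strands for the E2F sites TTTGGCGC, TTTCCCGC, TTTCGCGC and TTTGCCGC, for the box CCAAT and for the cell cycle homology region TTTGAA. Usp1, Rad54b, Fancd2, Wrn and Rad50 were not searched, and the window of Fanci held none of the motifs. The 4 members with the most negative difference among those with a window and a match are printed 5′ to 3′ on the gene's strand, with the matches, all of them CCAAT or its reverse complement, in capitals.
Blm (chr7:80534949-80535248, minus strand): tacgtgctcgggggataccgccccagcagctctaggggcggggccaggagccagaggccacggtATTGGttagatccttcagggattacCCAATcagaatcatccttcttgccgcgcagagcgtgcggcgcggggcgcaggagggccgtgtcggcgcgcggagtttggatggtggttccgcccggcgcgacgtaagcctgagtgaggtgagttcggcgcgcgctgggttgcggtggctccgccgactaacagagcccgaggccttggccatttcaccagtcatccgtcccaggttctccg
Rad54l (chr4:116123641-116123940, minus strand): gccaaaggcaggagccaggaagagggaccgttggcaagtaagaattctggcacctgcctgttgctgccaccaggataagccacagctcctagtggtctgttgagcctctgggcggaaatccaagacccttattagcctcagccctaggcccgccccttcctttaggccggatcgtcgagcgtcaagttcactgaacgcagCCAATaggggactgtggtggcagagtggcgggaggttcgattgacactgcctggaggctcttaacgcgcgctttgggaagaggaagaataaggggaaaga
Mre11a (chr9:14784404-14784703, plus strand): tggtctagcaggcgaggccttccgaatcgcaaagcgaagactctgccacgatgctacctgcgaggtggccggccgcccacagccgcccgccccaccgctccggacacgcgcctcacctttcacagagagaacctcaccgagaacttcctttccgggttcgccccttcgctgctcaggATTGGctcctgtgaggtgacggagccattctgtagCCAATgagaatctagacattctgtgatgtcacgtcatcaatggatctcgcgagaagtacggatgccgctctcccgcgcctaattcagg
Fancc (chr13:63431696-63431995, minus strand): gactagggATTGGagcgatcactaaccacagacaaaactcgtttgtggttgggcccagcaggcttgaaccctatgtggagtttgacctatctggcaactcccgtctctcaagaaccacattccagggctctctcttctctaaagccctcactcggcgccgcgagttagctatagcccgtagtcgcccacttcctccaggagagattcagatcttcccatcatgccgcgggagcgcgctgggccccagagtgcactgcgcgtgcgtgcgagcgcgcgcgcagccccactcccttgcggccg

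CCAAT was present in 11 of the 17 windows (64.7%), against 41.1% of 27018 genes in the RefSeq table and 50.7% of the 71 other tested repair genes with a window. It was present in 62.5% of the tested licensing genes and 83.3% of the tested mitosis genes with a window, so the members' share was not particular to them. Blm and Mre11a carried a pair of matches each. An E2F site was present in 4 of the 17 (23.5%), against 2.61% of all genes in the table and 8.45% of the 71 other repair genes. These 4 members were Brca2, Msh6, Chek2 and Xrcc6. Their median log2 difference was -0.29, while it was -0.50 over the 13 members without a site, and for CCAAT it was -0.50 over the 11 with a match and -0.27 over the 6 without. These splits were not tested. TTTGAA was present in 0 of the 17 windows, against 20.2% of all genes in the table and 10 of the 12 tested mitosis genes with a window. Among tested genes of replication licensing, the loading of the replicative helicase onto origins, 8 of 16 windows held an E2F site and 5 of 16 TTTGAA. A match describes the letters in this window and not binding by a factor.

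The shUHRF1 samples contributed unequally. Against the mean of both shSCR samples, the 22 members had a median difference of -0.52 for shUHRF1 sample 1 and of -0.19 for sample 2. In all, 18 members were lower in sample 1 than in sample 2, against 48.9% of all tested genes. In sample 1, 21 members were below the shSCR mean (50% of all tested genes) and in sample 2, 18 were (52.6%). The split was widest for Fancl, Rad54l and Fancd2, which were lower in sample 1 than in sample 2 by 0.99, 0.93 and 0.85 on the log2 scale. On the other tested probe of Fancl, sample 1 minus sample 2 was -0.66, so its place as the widest rests on its brightest probe. It was small for Msh6 and Brca2, and Fancc, Atm, Trp53bp1 and Wrn were lower in sample 2. With sample 1 alone against both controls the lowest adjusted p of any member was 0.138 by limma, and with sample 2 alone it was 0.583. In these fits the spread comes from the shSCR samples, and the single shUHRF1 sample is assumed to vary like them, so the p-values do not show that the shUHRF1 samples differ. Uhrf1 itself was lower in sample 2, at 8.48, than in sample 1, at 9.06, so the order of the samples for Uhrf1 was opposite to that of the repair median. Its arrays read 9.40 and 8.73 in sample 1 and 8.39 and 8.58 in sample 2, so most of this gap came from the first array of sample 1. The values come from a single probe, and a relation between the Uhrf1 level and the repair genes was not tested.

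**Figure D2:**
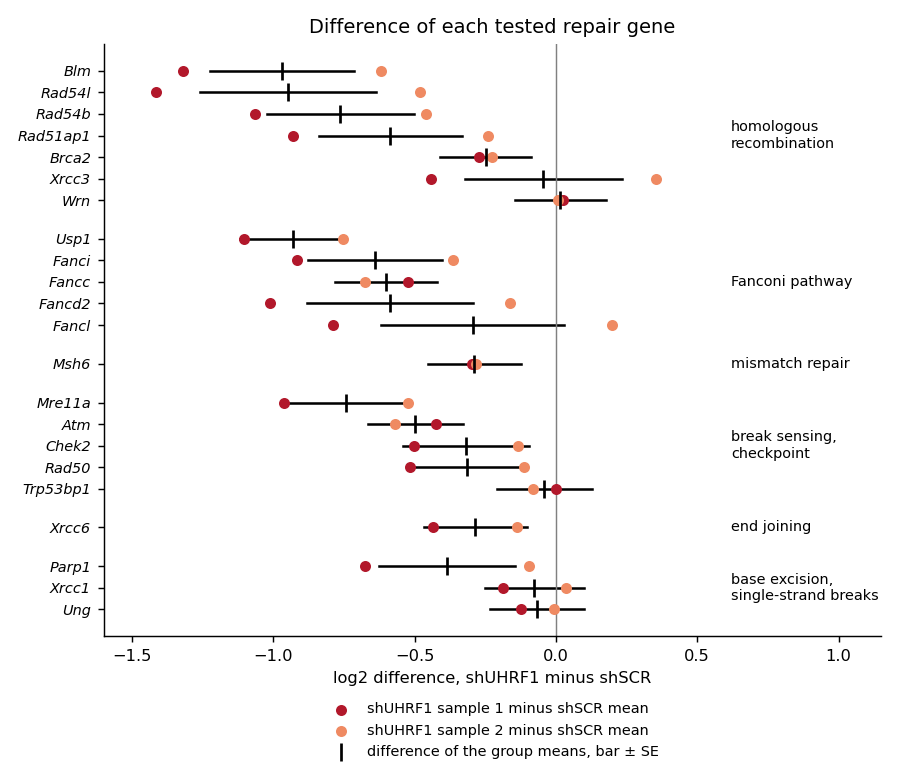
Log2 difference, shUHRF1 minus shSCR (horizontal axis), of the 22 tested repair genes by pathway, with a dark red point for shUHRF1 sample 1, an orange point for sample 2, and a black tick with a bar for the difference of the group means ± SE. Most red points lie to the left of the orange ones, and Xrcc3, Fancl, Xrcc1 and Wrn have an orange point to the right of 0.

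Arrays of the same RNA sample also disagreed, most in shUHRF1 cells. The median gap between the 2 arrays over the 22 members was 0.34 and 0.25 in shUHRF1 samples 1 and 2, against 0.19 and 0.15 in shSCR samples 1 and 2. The second array was lower than the first for 15 of the 22 members in shUHRF1 sample 1, with a median of -0.24, and higher for 17 of the 22 in shUHRF1 sample 2, with a median of 0.21. Centred on each gene's mean over the 8 arrays, the members' median was -0.42 and -0.38 on the arrays of shUHRF1 sample 1 and -0.12 and 0.09 on those of sample 2, against 0.22, 0.18, 0.23 and 0.16 on the shSCR arrays. Every shUHRF1 array had a lower median than every shSCR array. Replication licensing genes ran the same way, with -0.51, -0.44, -0.15 and 0.15 on the shUHRF1 arrays against 0.33, 0.22, 0.27 and 0.24 on the shSCR arrays. Mitosis genes spread further, with -0.58, -1.23, 0.05 and 0.17 on the shUHRF1 arrays against 0.37, 0.38, 0.44 and 0.40 on the shSCR arrays. The share of cycling cells was not measured, and its part in the repair differences was not tested.

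**Figure D3:**
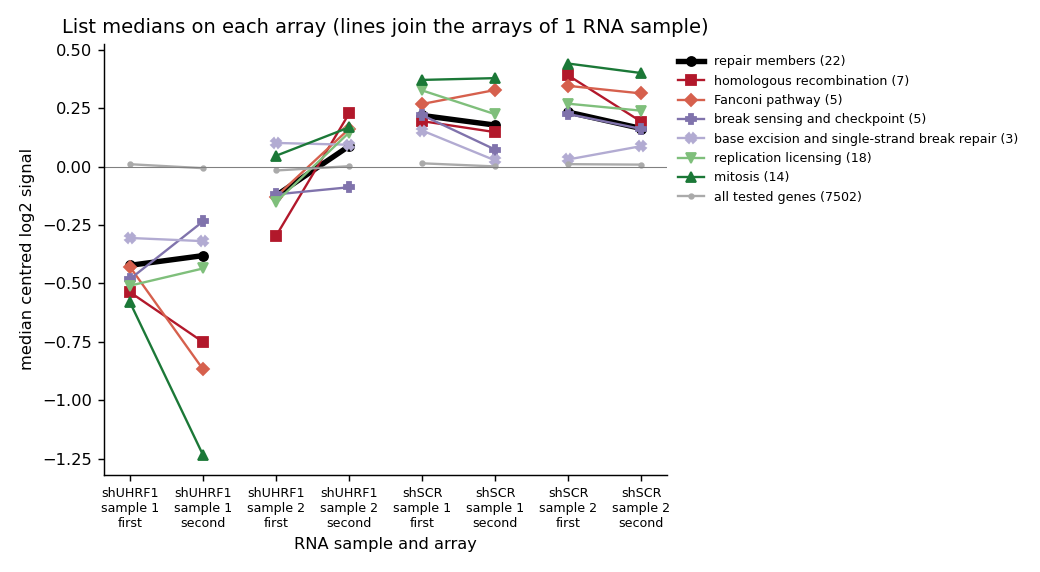
Median log2 signal of each gene list after centring each gene on its mean over the 8 arrays (vertical axis), for the 2 arrays of each RNA sample (horizontal axis), with the number of tested genes in the legend. The black line of the 22 repair genes lies between -0.42 and 0.09 on shUHRF1 arrays and between 0.16 and 0.23 on shSCR arrays, and the mitosis line reaches -1.23.

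The repair pathways differed in their medians, though no test was made between them. The median log2 difference was -0.59 over 7 recombination genes, -0.60 over 5 Fanconi genes, -0.32 over 5 sensing and checkpoint genes and -0.08 over 3 base excision genes. In each of these groups shUHRF1 sample 1 gave the more negative median, with -0.93 against -0.24 in sample 2 for recombination, -0.92 against -0.37 for the Fanconi pathway, -0.50 against -0.14 for sensing and -0.19 against -0.01 for base excision. From the authors' processed values the medians were smaller, at -0.16 over the 22 members, -0.22 for recombination, -0.11 for the Fanconi pathway and -0.12 for sensing. For comparison, the median was -0.53 over 18 licensing genes and -0.85 over 14 mitosis genes.

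Genes of the same pathways outside the 35 were described from lists of 119 further repair genes, of which 103 had a named probe and 85 were tested. Of these, 62 were lower and 23 higher, with a median of -0.20, where 51.5% of all tested genes were lower. With p under 0.05 before adjustment, 16 were lower and 0 higher, beside 6.62% of all tested genes lower and 7.9% higher, while 0 passed limma's adjusted threshold. The recombination genes outside the members had a median of -0.44 over 17, with 6 lower at an unadjusted p under 0.05. These were the RecQ helicase gene Recql4 at -0.87 (SE 0.18), Tonsl at -0.79 (SE 0.28) and Mms22l at -0.55 (SE 0.20), which form a complex at stalled forks, the recombination gene Rad51c at -0.60 (SE 0.16), and Rpa1 and Rpa2 at -0.56 (SE 0.19) and -0.52 (SE 0.20), subunits of the single-strand binding protein.

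Checkpoint genes outside the members had a median of -0.34 over 12. Clspn, the adaptor through which Atr activates Chek1, differed by -0.87 (SE 0.20), the fork protection gene Timeless by -0.80 (SE 0.26) and Brcc3, a deubiquitinase of a Brca1 complex, by -0.64 (SE 0.22), and for each of these genes the arrays of the groups did not overlap. Among 8 further Fanconi genes (median -0.28), Cenps, a Fancm partner that also sits at centromeres, stood at -0.89 (SE 0.36) and Faap24, another Fancm partner, at -0.47 (SE 0.19). The mismatch gene Msh3 stood at -0.46 (SE 0.18), with a median of -0.28 over 3 genes. Msh3 was detected on 2 of the 4 shUHRF1 arrays and passed the filter through the shSCR arrays alone, so its difference supports nothing on its own. The replicative ligase gene Lig1 stood at -0.79 (SE 0.22) among 15 base excision genes, whose median was -0.21.

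The other routes had medians nearer to 0. The median was 0.05 over 8 further end-joining genes, with 5 above 0, -0.14 over 12 nucleotide excision genes and 0.09 over 10 translesion genes, with 6 above 0. Even there, Ercc8, which acts in transcription-coupled repair, stood at -0.72 (SE 0.20), Rad18, the ligase that starts translesion synthesis, at -0.79 (SE 0.29) and the translesion polymerase gene Polh at -0.53 (SE 0.21). The arrays of the groups overlapped in Rad18 and Polh but not in Ercc8. Rad18 stood at -1.19 in shUHRF1 sample 1 and at -0.38 in sample 2. The most positive of the 85 was the Ku-binding factor gene Paxx at 0.43 (SE 0.18), with overlapping arrays. All shUHRF1 arrays lay below all shSCR arrays in 14 of the 85, against 8.45% of all tested genes, and above them in 2, against 8.17%. These 2 were the nucleotide excision gene Xpc at 0.33 (SE 0.17) and the translesion gene Ube2a at 0.30 (SE 0.18). The differences between these pathways were not tested.

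**Figure D4:**
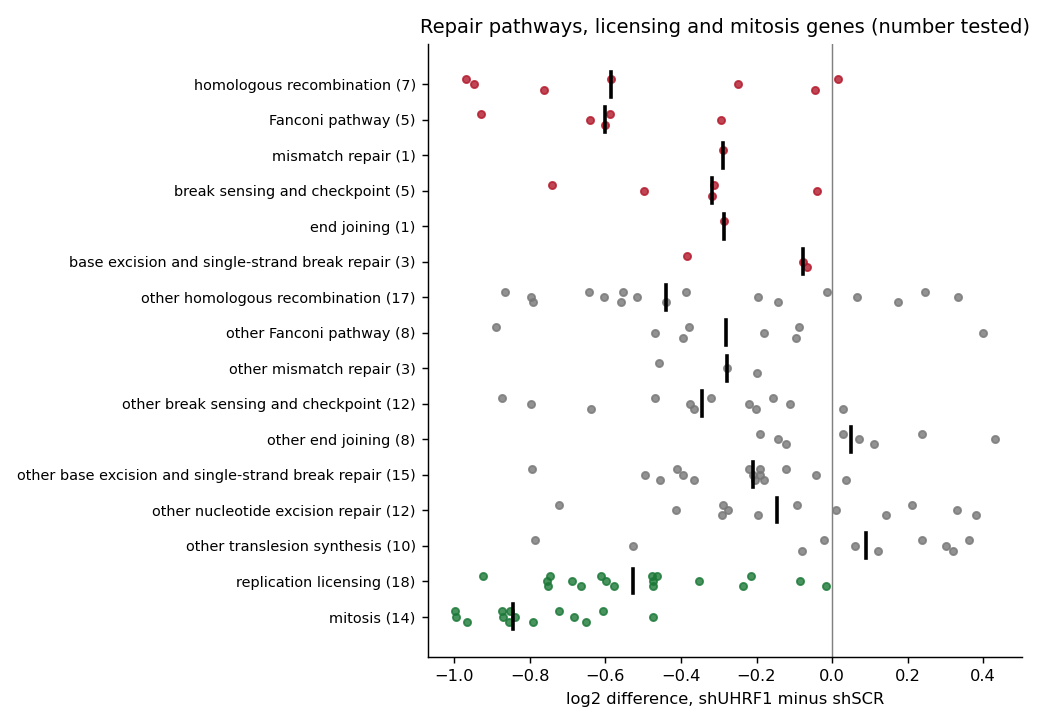
Log2 difference, shUHRF1 minus shSCR (horizontal axis), of each tested gene by pathway, with the number tested in brackets: the repair members in red, other repair genes in grey, and licensing and mitosis genes in green, with a black bar at each median. Recombination and Fanconi members have medians of -0.59 and -0.60, other end-joining and translesion genes lie around 0, and all 14 mitosis genes lie below 0.

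Several tested probes were at hand for 13 of the 22 members, and in 12 of these the probes had the same sign. The exception was Trp53bp1, with -0.04 and 0.00 on its probes. The size depended on the probe in several of them, most in Chek2, Mre11a, Fancc, Msh6 and Parp1, where the smallest values were -0.06, -0.24, -0.35, -0.17 and -0.24. The 9 members that were not tested had 15 probes, of which 9 were detected on no array.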

How the data were processed

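RNA from 4 samples (2 shUHRF1, 2 shSCR) was labelled as biotinylated cRNA and hybridised to Illumina bead arrays, 2 per RNA sample, per the labels' protocols. The deposited tables hold bead intensity and a detection p-value per probe on each array, not background-corrected or normalized as far as the values show. GenomeStudio 2011.1 and lumi are named in the submitters' processing notes. The authors also deposited processed values that behave as log2 intensities (median 7.86); how they were scaled is not stated in the labels or headers, and they served as an alternative.

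Intensities were background-corrected by normexp with an offset of 16 and background estimated from the detection p-values, quantile-normalized and put on the log2 scale with neqc of limma 3.58.1 in R 4.3.3. Of 25671 probes, 2 were left out; 23950 had 1 gene symbol in the platform annotation, 0 had several and 1719 had none. Probes detected (detection p under 0.05) on all arrays of a group were tested, which left 10880 probes, and each of 7502 genes was represented by its brightest tested probe. Arrays of an RNA sample were averaged, and groups were compared with limma's moderated test and Benjamini-Hochberg adjustment. The number of RNA samples, 2 per group, limits the precision. Same-numbered RNA samples deviated with a correlation of -0.161, so the numbers were not used as pairs.

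Values are given on every array for tested members whose groups did not overlap, whose unadjusted p was under 0.05 or whose log2 difference was at least 0.5 in size. Other repair genes are named where the unadjusted p was under 0.05; the rule's further named genes are not reported here. Paxx, as the most positive, and Xpc and Ube2a, whose shUHRF1 arrays all lay above the shSCR arrays, were added after their values were seen. Members, gene lists and tests were chosen with earlier results of these data known. Alternatives covered background correction, normalization, filter, probe choice, array weights, blocks, single arrays, left-out samples and the authors' values.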

Additional observations from a re-analysis of the deposited data

How the results depend on the processing

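The members' median log2 difference stayed below 0 in all 17 alternatives, from -0.52 to -0.16, and 0 members passed limma's adjusted threshold in any of them. The median in shUHRF1 sample 1 ran from -0.64 to -0.20 and in sample 2 from -0.36 to -0.07 over 11 alternatives each, which were added after seeing the data. Of 372 single-gene values under the alternatives, 361 kept their direction and 11 turned. The filter settings reuse the same normalized values, and the fits with a block are balanced. A gene's difference in them equals the main one, as for Blm at -0.97, so they could not turn a direction. Their values add nothing to the count of kept directions, and the fits with a block also repeat the main median. With the authors' processed values the medians were -0.16 for all members, -0.22 for recombination, -0.11 for the Fanconi pathway, -0.12 for break sensing and -0.20 for shUHRF1 sample 1. Without background correction they were -0.22 for the Fanconi pathway and -0.29 for shUHRF1 sample 1. The first arrays alone gave -0.55 for break sensing and -0.25 for base excision, with Trp53bp1 at 0.024 and Xrcc1 at 0.027. The second arrays alone gave 1 gene past the threshold over all genes, with Brca2 at 0.011, Xrcc3 at 0.13 and Ung at 0.12. Median scaling put Xrcc3 at 0.033. Leaving out 1 RNA sample at a time moved the recombination median between -0.93 and -0.24, break sensing between -0.50 and -0.14, Xrcc3 between -0.44 and 0.35, Fancl between -0.79 and 0.20, Trp53bp1 between -0.12 and 0.036 and Xrcc1 between -0.19 and 0.034. The causes of these shifts were not tested.

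Over all genes, 3 passed with the 8 arrays fitted and RNA sample as a random block, 1 with the replicate block by RNA sample number and 2 with array number as a block. A crossed pairing, chosen after seeing the data because same-numbered samples deviated with a correlation of -0.161, gave 2. A block for the slide was not run, because the file headers give no slide. With 2 RNA samples per group, genes near background, such as Fanci and Xrcc3, are the least certain.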
